A study of Mus musculus with 10 samples.

Results

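The contralateral kidney, the unclamped partner of a kidney made ischaemic on the other side, was compared with the kidney of unoperated mice in total RNA. The comparison rests on 4 of the 10 arrays of the series, chosen by their titles: 2 arrays of normal kidney total RNA and 2 of contralateral kidney total RNA. The other arrays hold amplified total RNA (4 arrays) and newly transcribed RNA (2 arrays). All mice were C57/BLACK6 males of 7 weeks and about 20 g. In normal mice, which had neither surgery nor anaesthesia, 4-thiouridine (s4U, 200 µM) with 34 µCi of 3H-cytidine was injected into the peritoneum in 1 ml of saline at 0 h and 1 h, and kidneys were taken at 2 h. In the contralateral group the blood vessels of the left kidney, artery and vein, were clamped for 45 min under diethylether, through a flank incision. The same injections followed 1 h and 2 h after the clamp was opened, and the kidney that had not been clamped was taken at 3 h. The labels name water as the control for s4U and do not say which mice received it. No sham operation is described, so an effect of the ischaemic partner kidney, surgery and ether cannot be told apart. The time from each injection to removal of the kidney was the same in both groups.

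A mouse whose one kidney has been made ischaemic relies on the other, which receives blood, hormones and cytokines changed by the operation and by the injured organ without having been ischaemic itself. Adrenal glucocorticoids rise under surgical stress and act through a nuclear receptor that switches on genes such as Fkbp5, Tsc22d3 and Pdk4 within hours. Interleukin-6 family cytokines act through STAT3 on Socs3 and Cebpd, and heme, metals and oxidants act on Hmox1 and the metallothioneins.

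Each probe set, a group of short probes for one transcript, has 1 deposited intensity per array. Signals are given below as normalized log2 values of the intensity plus an offset of 14.1, which compresses the differences of dim genes. The median deposited intensity was 55.8 and 59.7 on the normal arrays and 40.4 and 41.6 on the contralateral arrays. The ratio of 3' to 5' signal of Gapdh, a control for RNA and labelling quality, was 0.938 and 0.972 on the normal arrays against 1.03 and 1.12, and that of Actb was 1.30 and 1.43 against 1.70 and 1.85. The groups did not overlap in any of these 3 measures, and the part of RNA quality in the results below was not tested. After normalization any pair of the 4 arrays correlated at r = 0.977 to 0.984 over all probe sets. The median absolute difference was 0.167 between the normal arrays, 0.17 between the contralateral arrays and 0.16 between the group means, each of which averages 2 arrays. The titles call the arrays biological replicates, without naming the mice. With 2 arrays against 2 the smallest p-value of a 2-sided exact permutation test is 0.333, so all tests are moderated tests (limma), fitted across all probe sets or, where stated, across the brighter ones.

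In contralateral kidneys 16 of 22626 probe sets rose (0.0707%) and 0 fell (0%), at an adjusted p under 0.05. The named ones belong to 12 genes: Hmox1, Cebpd, Cdkn1a, Malat1, Tnfrsf12a, Igfbp1, Ddit4, Angptl4, Sptbn1, Fkbp5, Dusp1 and Mt1. The remaining 4 probe sets are unnamed here. At an unadjusted p under 0.05 there were 1379 higher and 1176 lower probe sets, and at least 2-fold differences without overlap of the groups were seen in 113 higher (0.499%) and 31 lower probe sets (0.137%). Both contralateral arrays lay above both normal arrays in all of the 16, which was so for 4581 of all probe sets (20.2%), while both lay below in 5009 (22.1%). Leaving out any of the 4 arrays, normal 1, normal 2, contralateral 1 or contralateral 2, left 0 calls in this fit, and the direction of all 16 was kept. Centring the arrays on their medians gave 24 higher and 3 lower calls. Without normalization the median of all probe sets moved to -0.365, with 91 higher and 3883 lower calls, and the 16 were still called higher.

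**Figure D1:**
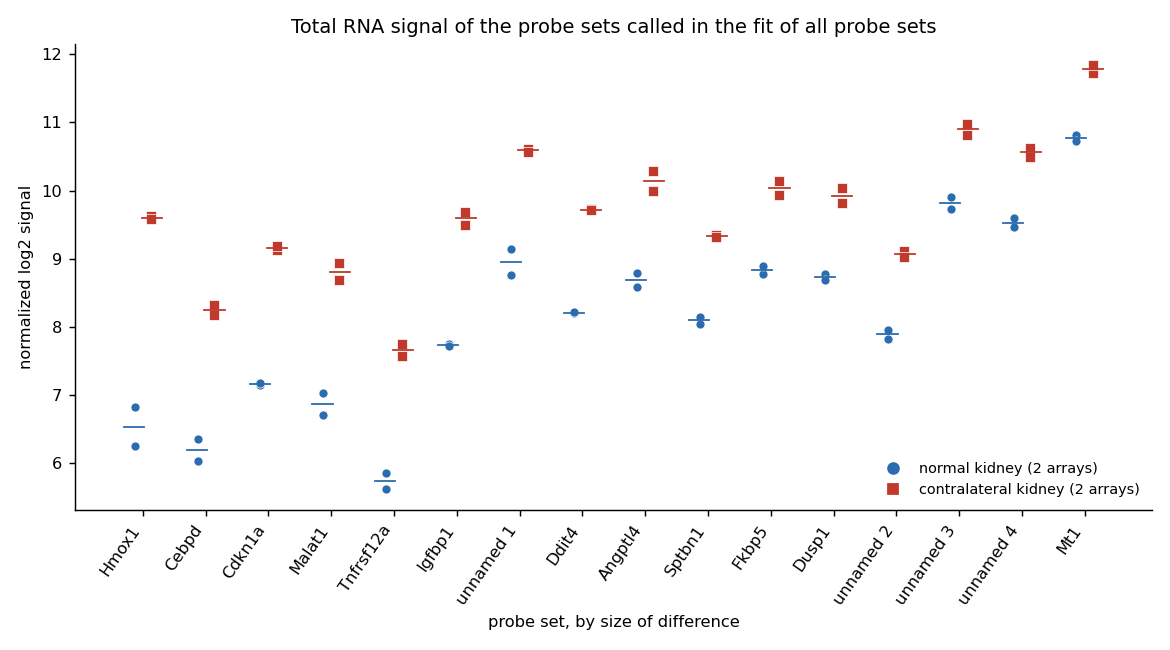
Normalized log2 signal (vertical axis) of the 16 probe sets called higher in contralateral kidney total RNA, ordered by the size of the difference, with circles for the 2 normal arrays, squares for the 2 contralateral arrays and a bar at each group mean. Hmox1 shows the largest gap, from 6.25 and 6.82 to 9.62 and 9.58, and no probe set has overlapping groups.

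Hmox1, heme oxygenase 1, breaks down heme and had the largest difference of all. Its signal was 6.25 and 6.82 in normal kidneys and 9.62 and 9.58 in contralateral kidneys. It rose by 3.06 ± 0.19 (SE; 8.36-fold, adjusted p = 0.0185). On the deposited scale this was 72.4 and 118.0 against 627.3 and 682.2. The normal arrays differed from each other by more than the contralateral ones, and the gap between the groups was several times larger than either spread.

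Cdkn1a, Ddit4 and Igfbp1 had the smallest adjusted p of the named genes. Cdkn1a, the cyclin-dependent kinase inhibitor p21, gave 7.14 and 7.18 in normal and 9.13 and 9.19 in contralateral kidneys, a rise of 2.01 ± 0.093 (4.01-fold, adjusted p = 0.0129). Ddit4, an inhibitor of the growth kinase mTORC1, gave 8.20 and 8.21 against 9.73 and 9.71, a rise of 1.52 ± 0.080 (2.87-fold, adjusted p = 0.0129). The arrays of a group nearly coincided for both genes. Another, dimmer probe set of Cdkn1a did not pass, with 5.18 and 4.18 against 6.13 and 5.99 (1.38, adjusted p = 0.272). Igfbp1, which binds insulin-like growth factors and is induced in fasting and stress, gave 7.75 and 7.72 against 9.49 and 9.69, a rise of 1.86 ± 0.10 (3.62-fold, adjusted p = 0.0129). Tnfrsf12a, the receptor of the cytokine TWEAK, has 2 probe sets. The dimmer one gave 5.62 and 5.86 against 7.57 and 7.75 and rose by 1.92 ± 0.16 (adjusted p = 0.0429). The brighter one gave 6.02 and 5.71 against 7.56 and 7.97 and did not pass (1.90, adjusted p = 0.0673).

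Of the 12 named genes, 8 are in the list of glucocorticoid-induced genes described below, among them Cdkn1a, Ddit4 and Igfbp1 above and the 3 genes given next. Cebpd, a C/EBP transcription factor of stress and acute phase responses, gave 6.03 and 6.36 in normal and 8.32 and 8.17 in contralateral kidneys, a rise of 2.05 ± 0.15 (4.13-fold, adjusted p = 0.042). Angptl4, a secreted inhibitor of lipoprotein lipase, gave 8.58 and 8.79 against 10.28 and 9.99, a rise of 1.45 ± 0.13 (2.73-fold, adjusted p = 0.0447). Fkbp5, a cochaperone that dampens the glucocorticoid receptor, gave 8.78 and 8.89 against 9.93 and 10.14, a rise of 1.21 ± 0.10 (2.31-fold, adjusted p = 0.0429). In all of these the lower contralateral array lay above the higher normal one by more than the arrays of a group differed. Cebpd and Angptl4 each have another, dimmer probe set that did not pass (0.61 and -0.16), and the second probe set of Fkbp5 stood at 0.58.

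Dusp1, a phosphatase that switches off p38 and JNK kinases, gave 8.78 and 8.69 in normal and 10.04 and 9.81 in contralateral kidneys and rose by 1.19 ± 0.10 (2.28-fold, adjusted p = 0.0447). Mt1, metallothionein 1, binds zinc and other metals. Its signal was 10.82 and 10.73 against 11.72 and 11.84, a rise of 1.01 ± 0.085 (2.01-fold, adjusted p = 0.0429). Another, dimmer probe set of Mt1 did not pass (0.68, adjusted p = 0.412). Mt2, the neighbouring metallothionein gene, gave 9.78 and 9.40 against 11.09 and 11.42, a difference of 1.66 ± 0.16 that did not pass here (adjusted p = 0.0564) and did among brighter probe sets (adjusted p = 0.00176, described below).

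The start regions of these 3 genes are shown because each holds a motif that is known as a response element of its class. RefSeq promoter windows of 300 bases (GRCm38.p6) were matched for 9 of the 12 genes with a rise, and 9 motifs were searched on both strands. Capitals mark the core of the metal response element, TGCNCNC, in Mt1 (chr8:94178839-94179138, plus strand) and Mt2 (chr8:94172368-94172667, plus strand). The Mt2 window also holds 1 match each to TGANTCA, TGACNNNGC and TTGCNNAA, left in lower case, the former pair starting at the same base. In Dusp1 (chr17:26508423-26508722, minus strand) they mark the cAMP response element TGACGTCA, the antioxidant response element core TGACNNNGC and the E-box CACGTG, the last of which overlaps the one before it. The Dusp1 window also holds 1 match to TGCNCNC, left in lower case. Each sequence is written 5' to 3' along the gene.
Mt1: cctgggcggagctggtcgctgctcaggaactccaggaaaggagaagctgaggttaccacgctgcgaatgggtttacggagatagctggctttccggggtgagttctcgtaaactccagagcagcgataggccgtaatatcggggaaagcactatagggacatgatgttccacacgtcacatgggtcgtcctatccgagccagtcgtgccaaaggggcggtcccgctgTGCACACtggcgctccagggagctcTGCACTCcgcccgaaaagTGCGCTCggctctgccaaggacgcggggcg
Mt2: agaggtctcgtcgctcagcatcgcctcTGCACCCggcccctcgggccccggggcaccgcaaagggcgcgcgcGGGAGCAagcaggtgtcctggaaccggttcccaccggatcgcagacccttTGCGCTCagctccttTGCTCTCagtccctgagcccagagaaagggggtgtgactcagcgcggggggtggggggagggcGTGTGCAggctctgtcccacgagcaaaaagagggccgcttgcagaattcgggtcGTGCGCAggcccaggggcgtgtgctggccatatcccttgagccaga
Dusp1: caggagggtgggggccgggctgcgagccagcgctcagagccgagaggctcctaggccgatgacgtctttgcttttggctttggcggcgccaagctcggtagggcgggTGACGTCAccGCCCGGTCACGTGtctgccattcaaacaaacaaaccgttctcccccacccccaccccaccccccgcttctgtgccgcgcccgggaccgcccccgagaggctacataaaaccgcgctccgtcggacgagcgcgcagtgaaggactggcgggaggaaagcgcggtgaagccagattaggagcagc

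The metal core TGCNCNC occurred 3 times in the Mt1 window and 6 times in that of Mt2. It also occurred 3 times in the window of Igfbp1, which is not shown. Of 32851 promoter windows 51% held at least 1 match, 7.1% at least 3 and 0.225% at least 6. The cAMP response element of Dusp1 was found in 1.79% of all windows, TGACNNNGC in 12.4% and CACGTG in 7.15%. Among the 9 matched genes, TGCNCNC was found in 7, TGACNNNGC in 3 and CACGTG in 2. The motifs TGANTCA (AP-1, 7.81% of all windows), TTGCNNAA (C/EBP, 10.8%), TTCNNNGAA (STAT, 8.3%), AGAACA (a half-site of the glucocorticoid response element, 19%) and TATAAA (13.6%) were found in 0 of the 9, which do not include Mt2. These matches describe letters in a short window and not binding.

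The probe sets of Malat1 and Sptbn1 did not behave alike. Malat1, a long nuclear non-coding RNA, has 5 probe sets. The one that passed gave 7.03 and 6.70 in normal and 8.93 and 8.69 in contralateral kidneys (1.95 ± 0.15, adjusted p = 0.042). The brightest gave 10.40 and 10.20 against 10.04 and 11.22, with overlapping groups and a difference of 0.33. Its other 3 probe sets stood at 1.89, 1.45 and 0.74. For Sptbn1, a spectrin of the membrane skeleton, 1 of 4 probe sets passed, with 8.15 and 8.04 against 9.35 and 9.32 (1.24 ± 0.089, adjusted p = 0.0368). The brightest, at 11.23 and 11.09 against 11.15 and 11.09, differed by -0.04, and the others by 0.79 and 0.57. The rise therefore holds for single probe sets of these genes. The unnamed probe sets rose by 1.63, 1.18, 1.08 and 1.03.

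Dim probe sets fill the lower part of the array and vary most, so the comparison was also made among the 13575 probe sets whose mean lay above the 40th percentile. In this fit 183 probe sets were higher (1.35%) and 45 lower (0.331%), including all 16 above. Centred on the array medians, it gave 152 and 57. Counted once per gene, by the brightest probe set, 99 of 8284 genes were higher (1.2%) and 31 lower (0.374%), against 9 (0.0726%) and 0 of 12393 genes in the fit of all probe sets. The count of 228 probe sets was 158 without normal array 1, 61 without normal array 2, 37 without contralateral array 1 and 131 without contralateral array 2, and the 16 were called in each of these fits. A gene said below to pass among brighter probe sets carries its adjusted p from this fit, while ± gives the SE from the fit of all probe sets. Apart from the genes named above as rises, none of these genes passed there with its brightest probe set. Dim members of a list could not pass in the brighter fit, and their number is given where many were left out. Members of a list are counted by the brightest probe set, and another probe set of the gene can differ from it in call or direction. All lists were drawn up with earlier results of these data known, so their counts and medians are no independent evidence. The filter used the mean over both groups, so a gene dim in either group could enter by its signal in the other. Many of these genes were picked for naming after their values had been seen.

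**Figure D2:**
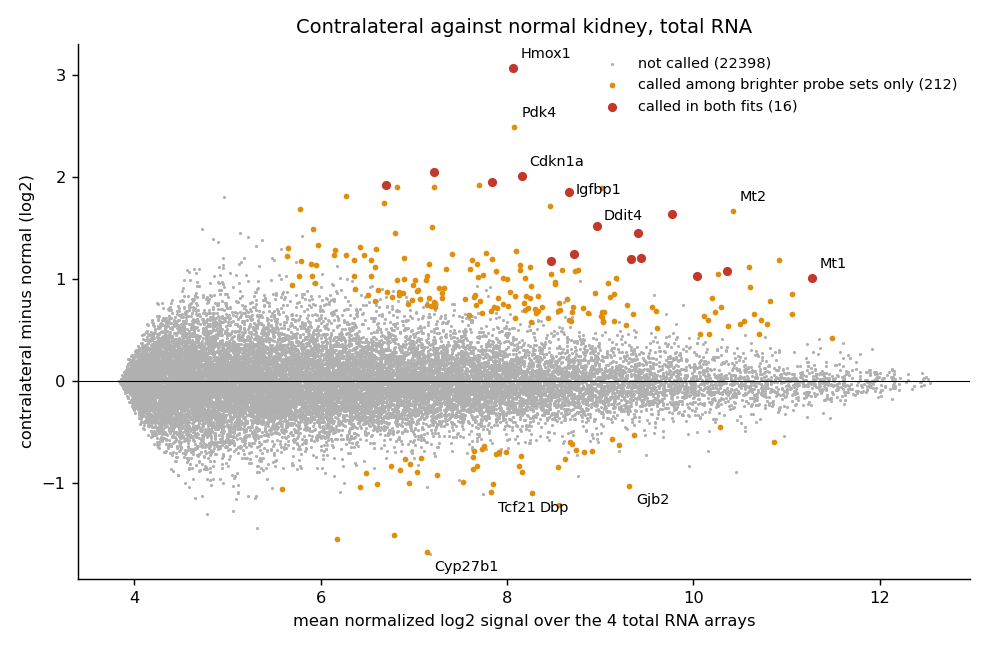
Contralateral minus normal difference (vertical axis, log2) against the mean normalized log2 signal over the 4 total RNA arrays (horizontal axis), 1 point per probe set. Red marks the 16 probe sets called in both fits, orange the 212 called only among brighter probe sets and grey the 22398 not called; Hmox1 is highest at 3.06 and the labelled lower genes reach -1.67 at Cyp27b1.

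Glucocorticoid-induced genes were higher in most of the measured members. Of the 24 measured genes 8 rose in the fit of all probe sets and 17 passed as higher among brighter probe sets, where 23 could be tested, with 0 lower in either. In 20 of the 24 both contralateral arrays lay above both normal arrays, which was so for 18.7% of all genes, and 15 were also at least 2-fold higher (0.492% of all genes). The median difference was 1.14, against -0.03 over all genes. The list was drawn up with earlier results of these data known, so its direction is no independent evidence.

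Among the members that passed only among brighter probe sets, Pdk4 had the largest difference. Pdk4, the kinase that closes pyruvate dehydrogenase and spares glucose, gave 7.30 and 6.37 in normal and 10 and 8.64 in contralateral kidneys (2.49 ± 0.48, adjusted p = 0.0266 among brighter probe sets). Its groups did not overlap, although the arrays within each group also lay far apart. Tsc22d3 (GILZ), a mediator of anti-inflammatory steroid effects, gave 7.50 and 7.70 against 9.78 and 8.86 (1.72 ± 0.28, adjusted p = 0.0169). Cebpb, a partner of Cebpd, gave 7.38 and 7.55 against 8.91 and 8.57 (1.27 ± 0.14, adjusted p = 0.00724). Here too the groups were apart. The transcriptional repressor gene Zbtb16 (1.18), the kinase gene Sgk1 that promotes sodium transport (1.09), the sulfotransferase gene Sult1a1 (1.08), the EGF receptor inhibitor gene Errfi1 (0.66) and Nfkbia (0.56), which encodes the inhibitor of NF-kB, also passed among brighter probe sets. The 7 members that did not pass in either fit ranged from -0.62 for the tyrosine aminotransferase gene Tat to 0.59 for Hif3a, with the clock gene Per1 at -0.07, Lcn2 at 0.20, Klf9 at 0.30 and Klf15 at 0.38.

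**Figure D3:**
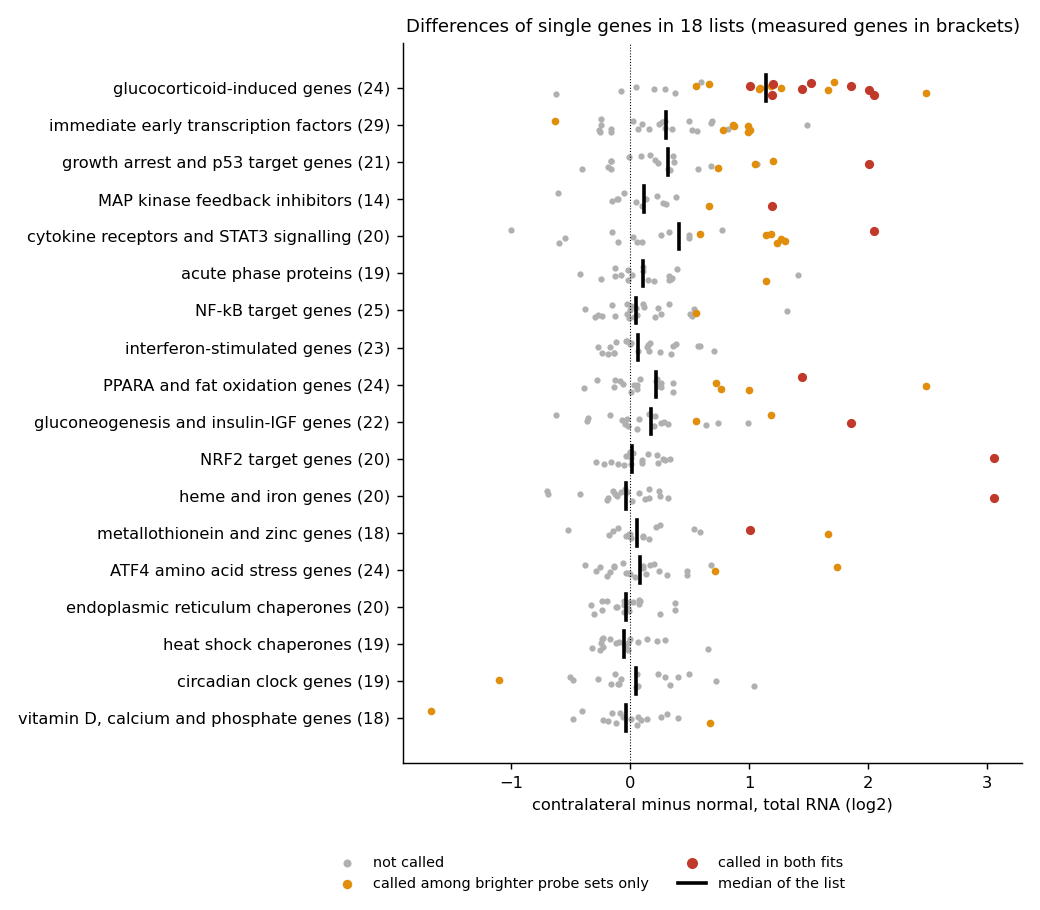
Contralateral minus normal difference in total RNA (horizontal axis, log2) of single genes in 18 gene lists (rows, number of measured genes in brackets), with red and orange for genes called in both fits or among brighter probe sets only, grey for genes not called and a bar at the median of each list. The glucocorticoid-induced list has its median at 1.14, and the medians of the other 17 lists lie between -0.05 and 0.41.

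Cytokine signalling through STAT3 was the next list by median (0.41 over 20 genes). In it 1 gene, Cebpd, rose in the fit of all probe sets. Among brighter ones, where 17 could be tested, 7 passed as higher (1.2% of all genes) and 0 as lower. Of the 7, Cebpd and Cebpb are also members of the glucocorticoid list. This list too was drawn up with earlier results of these data known. Osmr, the receptor subunit for oncostatin M, gave 6.53 and 6.65 in normal and 7.69 and 7.77 in contralateral kidneys (1.14 ± 0.13, adjusted p = 0.00724). Socs3, the feedback inhibitor of the pathway, gave 5.86 and 6.04 against 7.19 and 7.08 (1.18 ± 0.16, adjusted p = 0.0133). Both genes had tight arrays and a clear gap. Steap4 (1.30), a metalloreductase gene induced by inflammation, the survival kinase gene Pim1 (1.24) and Stat3 itself (0.59) passed as well. Steap4 entered the brighter fit only through its contralateral signal (adjusted p = 0.154 over all probe sets). Socs2, an inhibitor of growth hormone signalling, went the other way without passing, with 7.40 and 6.11 against 5.55 and 5.96.

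Of the acute phase proteins, which the liver secretes in inflammation, 7 of 19 measured could be tested among brighter probe sets, where 1 passed as higher and 0 as lower (median of the 19, 0.11). This was fibrinogen alpha, Fga, with 6.98 and 7.23 in normal and 8.25 on each contralateral array (1.15 ± 0.12, adjusted p = 0.00724). Haptoglobin, Hp, gave 4.94 and 4.09 against 5.70 and 6.16, a difference of 1.41 that did not pass (adjusted p = 0.25 over all probe sets), and it was too dim for the brighter fit. Among 25 NF-kB target genes (median 0.05), of which 11 could be tested among brighter probe sets, Nfkbia was the 1 that passed, with 10.17 and 10.28 against 10.79 and 10.77. The chemokine gene Cxcl1 gave 4.41 and 4.88 against 5.63 and 6.30 and did not pass (1.32, adjusted p = 0.237). Il6 gave 4.39 and 4.36 against 4.21 and 4.50 and Ccl2 4.42 and 5.55 against 4.32 and 5.06, both left out of the brighter fit, and Icam1 stood at 0.24 without passing. Of 23 interferon-stimulated genes (median 0.07) 0 passed in either fit.

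Immediate early transcription factors, which respond to stimuli within minutes, had 0 of 29 members past the threshold in the fit of all probe sets, and 6 higher and 1 lower among brighter probe sets, where 21 could be tested (median of the 29, 0.30). Egr1, a zinc finger factor of growth signalling, gave 6.67 and 6.36 in normal and 7.58 and 7.43 in contralateral kidneys (0.99 ± 0.16, adjusted p = 0.0245). Zfp36, which destabilizes cytokine mRNAs, gave 7.43 and 7.48 against 8.62 and 8.31 (1.01 ± 0.13, adjusted p = 0.0154). The groups were apart in both. Klf6 (0.99), Klf2 (0.88), Klf4 (0.87) and Jun (0.78) also passed. Fos, the partner of Jun, gave 5.47 and 5.31 against 6.30 and 6.12 and did not pass (0.82, adjusted p = 0.0783 among brighter probe sets). Maff, a small MAF factor, was left out of the brighter fit and gave 3.96 and 4.01 against 5.52 and 5.43 (1.49, adjusted p = 0.0738 over all probe sets). Id2, an inhibitor of basic helix-loop-helix factors, was the lower one, from 9.62 and 9.41 to 8.88 and 8.89 (-0.63, adjusted p = 0.0334). Other probe sets of Id2 stood at -0.41 and 0.16 and did not pass. Of 14 MAP kinase feedback inhibitors Dusp1 rose, and Errfi1 passed among brighter probe sets.

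Growth arrest genes beside Cdkn1a passed among brighter probe sets only, where 19 of 21 could be tested. With Cdkn1a included 4 were higher (1.2% of all genes) and 0 lower (median of the 21, 0.32). Gadd45a, a DNA damage and stress gene, gave 6.32 and 6.26 in normal and 7.65 and 7.33 in contralateral kidneys (1.20 ± 0.16, adjusted p = 0.0129). Gadd45g gave 8.20 and 7.69 against 9.19 and 8.81 (1.05, adjusted p = 0.0341), and the sestrin gene Sesn1, a p53 target, gave 6.92 and 6.71 against 7.56 on each array (0.74, adjusted p = 0.0431). None of these genes had overlapping groups. Sesn2, a relative of Sesn1 induced by amino acid shortage through ATF4, gave 5.79 and 5.83 against 7.94 and 7.16 (1.74 ± 0.26, adjusted p = 0.0136). With the serine synthesis gene Psat1 (0.72, adjusted p = 0.0445) it made 2 of 24 ATF4 genes (19 testable among brighter probe sets), whose median was 0.08. Of 21 apoptosis regulators the survival gene Bcl2l1 passed (0.82, adjusted p = 0.0281), and of 25 cell cycle genes 0 passed in either fit. Other probe sets of Bcl2l1 stood at 0.48, -0.37 and 0.33 and did not pass.

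Genes of fuel use were higher in part. Of 24 PPARA and fat oxidation genes (median 0.22), which are switched on in fasting, Angptl4 rose. Among brighter probe sets, where 21 could be tested, 5 passed as higher (1.2% of all genes) and 0 as lower. Beside Pdk4 and Angptl4 these were Ppara itself, with 7.47 and 7.54 in normal and 8.69 and 8.32 in contralateral kidneys (1.00 ± 0.14, adjusted p = 0.0169), its coactivator gene Ppargc1a (0.77, adjusted p = 0.0223) and the fatty acid hydroxylase gene Cyp4a14 (0.73, adjusted p = 0.0243). Among 22 gluconeogenesis and insulin-IGF genes Igfbp1 rose, and 3 passed among brighter probe sets (median 0.18). G6pc, the last enzyme of glucose release, gave 10.14 and 10.51 against 11.67 and 11.36 (1.19 ± 0.16, adjusted p = 0.00724). Pck1, which feeds gluconeogenesis, gave 10.67 and 10.35 against 11.10 and 11.04 (0.56, adjusted p = 0.0447). The groups were apart for both enzymes. Glul, glutamine synthetase, was higher by 0.64 (adjusted p = 0.0169), and Txnip, a glucose-responsive thioredoxin inhibitor, by 0.73 (adjusted p = 0.0169).

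Hmox1 was the only passing member of the 2 lists that hold it. Of 20 NRF2 target genes (median 0.02) and 20 heme and iron genes (median -0.03) Hmox1 was in each the 1 that passed in either fit. The NRF2 targets Nqo1 (0.00), Gclc (-0.05) and Gclm (0.28) did not pass. Nor did the ferritin gene Fth1, with 12.33 and 12.26 in normal and 12.28 and 12.34 in contralateral kidneys, or the transferrin receptor gene Tfrc, with 9.43 and 9.66 against 8.54 and 9.18 (-0.69, adjusted p = 0.133 among brighter probe sets). Mt1 and Mt2 were the 2 of 18 metallothionein and zinc genes that passed among brighter probe sets, and the zinc exporter gene Slc30a1 stood at -0.18. Endoplasmic reticulum chaperones (20 genes, median -0.03), heat shock chaperones (19, median -0.05), hypoxia and glycolysis genes (21, median 0.07) and cholesterol synthesis genes (17, median -0.11) had 0 members past the threshold in either fit by the brightest probe set. Among them Hspa1a stood at -0.24, Herpud1 at 0.38, Vegfa at -0.32 and the glycolysis activator gene Pfkfb3 at 0.71. Less bright probe sets passed as higher among brighter ones for Herpud1 (0.60, adjusted p = 0.021) and for Ndrg1 of the hypoxia list (0.54 and 0.59, adjusted p = 0.0362 and 0.034). The brightest of Ndrg1 stood at 0.31.

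Tubular injury markers are genes that damaged tubules express. Among 19 measured genes (median 0.20), 14 of them testable among brighter probe sets, Tnfrsf12a was the 1 that passed among brighter probe sets. Havcr1 (KIM-1), the marker most used for injured proximal tubule, gave 5.36 and 5.85 in normal and 5.16 and 5.56 in contralateral kidneys, and Lcn2 (NGAL) gave 5.91 and 5.60 against 5.64 and 6.27. Both had overlapping groups. Sox9, a factor of tubular repair, was at 0.54 and the growth factor gene Hbegf at 0.47, neither past the threshold.

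Further genes in the higher direction belonged to small groups. Slc25a33, a mitochondrial pyrimidine nucleotide carrier, gave 6.95 and 6.52 in normal and 8.81 and 8.51 in contralateral kidneys (1.92 ± 0.18, adjusted p = 0.00189 among brighter probe sets, 0.0513 over all). Upp2, which splits uridine, gave 6.70 and 6.19 against 7.75 and 8.15 (1.50 ± 0.22, adjusted p = 0.0138). The groups were apart in both genes. Tsc22d1, a relative of Tsc22d3, gave 10.60 and 10.66 against 11.55 and 11.42 (0.86 ± 0.084, adjusted p = 0.00219). The growth and matrix factor Ccn2 (1.01, adjusted p = 0.00724), the bone morphogenetic protein gene Bmp4 (0.83, adjusted p = 0.0354), the receptor gene Erbb3 (0.55, adjusted p = 0.0355) and the collagen cross-linking enzyme gene Lox (0.89, adjusted p = 0.0223) passed too. So did Arg2, the arginase of mitochondria (0.82, adjusted p = 0.0341), the potassium channel gene Kcnj15 (0.95, adjusted p = 0.00763) and Klf13, another Krüppel-like factor (1.13, adjusted p = 0.00731). Other probe sets of Lox stood at -0.17 and 0.41 and did not pass. Of 99 higher genes 56 were in at least 1 of the 54 lists, 17 of them in the glucocorticoid list, and 43 were in none. The share of all genes that are in a list was not counted. Members were chosen with earlier results of these data known, so these counts show no excess.

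Lower genes were fewer and none passed over all probe sets. Cyp27b1, the mitochondrial enzyme that makes active vitamin D in the proximal tubule, had the largest difference among the genes that passed as lower among brighter probe sets. It gave 8.03 and 7.93 in normal and 6.07 and 6.55 in contralateral kidneys (-1.67 ± 0.19, adjusted p = 0.0688 over all and 0.00442 among brighter probe sets). Cyp24a1, which inactivates vitamin D, went the opposite way, from 8.60 and 8.80 to 9.36 and 9.40 (0.68 ± 0.098, adjusted p = 0.0263 among brighter probe sets). These were the 2 of 18 vitamin D, calcium and phosphate genes that passed, while the receptor gene Vdr (0.14) and the phosphate transporter gene Slc34a1 (0.09) did not.

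Tcf21, a transcription factor of podocytes and stromal cells, gave 8.45 and 8.28 in normal and 7.36 and 7.21 in contralateral kidneys (-1.08 ± 0.12, adjusted p = 0.00731 among brighter probe sets). Gjb2, a gap junction connexin, gave 9.66 and 9.97 against 8.61 and 8.98 (-1.02 ± 0.16, adjusted p = 0.0169), and it was the 1 of 13 connexins that passed (median -0.18; 5 testable among brighter probe sets). Dbp, an output factor of the circadian clock, gave 9.0 and 8.64 against 7.88 and 7.56 (-1.10 ± 0.17, adjusted p = 0.0169). The groups were apart in all 3 genes. Of 19 clock genes (median 0.05; 14 testable among brighter probe sets) Dbp was the 1 that passed, while its antagonist Nfil3 gave 4.54 and 4.59 against 5.79 and 5.43 and was too dim for the brighter fit (1.04, adjusted p = 0.199 over all probe sets). The hours at which kidneys were removed are given from the start of the injections or of reperfusion, not as times of day.

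Neuropeptide Y, Npy, gave 6.92 and 6.94 in normal and 6.17 and 5.90 in contralateral kidneys (-0.89, adjusted p = 0.0381) and was the 1 of 23 renin-angiotensin and vasoactive genes that passed, 14 of which could be tested among brighter probe sets. The protein kinase C substrate gene Marcks (-0.91), the transporter gene Slc22a23 (-0.89), the hematopoietic factor gene Lmo2 (-0.89), its binding partner Ldb2 (-0.83), the glucosamine-6-phosphate deaminase gene Gnpda1 (-0.76), the apelin receptor gene Aplnr (-0.74), Cebpa (-0.63) and the tubule patterning gene Irx3 (-0.61) also passed as lower. Cebpa, the C/EBP factor of differentiated cells, thus stood on the other side from Cebpb and Cebpd, with 8.02 and 8.11 against 7.39 and 7.48 (adjusted p = 0.049). Of 74 mitochondrial ribosomal protein genes Mrps16 (-0.69) and Mrpl34 (-0.57) passed as lower, and of 47 cytosolic ones Rps27 (-1.04), with list medians of -0.09 and -0.03. Another probe set of Mrpl34 stood at 0.32 and the other probe sets of Marcks between -0.52 and -0.05, and none of these passed. Respiratory chain and ATP synthase subunits (79 genes, median -0.07), proteasome subunits (39, median -0.01), splicing factors (78, median -0.01) and glutathione S-transferases (21, median -0.09) had 0 members past the threshold in either fit. Of 31 lower genes 10 were in a list and 21 in none. By the brightest probe set of each gene, 21 of the 54 lists had 0 members called in either fit. Here too the share of all genes that are in a list was not counted.

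The tissue label was checked by markers of kidney cells, and 0 of the proximal tubule, thick limb, collecting duct and podocyte markers were at or below the offset on all 4 arrays. In a bulk sample fewer cells of a type and less RNA per cell cannot be told apart. The summed normalized signal of 19 proximal tubule markers was 46679 and 45003 in normal and 45754 and 45202 in contralateral kidneys, with a median difference of -0.07. That of 13 thick limb and distal tubule markers was 20446 and 21725 against 21697 and 20628, and that of 14 collecting duct markers 3744 and 4272 against 4497 and 4173. The groups overlapped in all 3 sums, and 0 of these tubule markers passed in either fit by the brightest probe set. For the proximal tubule marker Slc4a4 the brightest stood at 0.45. Less bright probe sets of Slc4a4, at 0.96 and 0.68, passed as higher among brighter probe sets (limma, adjusted p = 0.0303 and 0.0431). Podocyte markers summed to 2104 and 2463 against 1848 and 2098, lower in contralateral kidneys without overlap of the groups, with Tcf21 the 1 of 10 that passed, while Podxl, the brightest, differed by -0.01. Among 17 endothelial markers (3857 and 4342 against 4172 and 3744, overlapping) thrombomodulin, Thbd, which restrains clotting, passed as higher, with 6.77 and 6.86 against 7.70 and 7.75 (0.91, adjusted p = 0.0169). Plvap, of fenestrated endothelium, gave 8.90 and 9.56 against 8.05 and 8.56 and did not pass (-0.93, adjusted p = 0.0928).

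Leukocyte markers summed to 2329 and 2592 in normal and 2629 and 2417 in contralateral kidneys, with overlap. The neutrophil and monocyte gene S100a9 was the 1 of 19 that passed (15 testable among brighter probe sets), with 5.02 and 5.60 against 6.48 and 6.80 (1.33, adjusted p = 0.0334). It entered the brighter fit only through its contralateral signal, and its adjusted p over all probe sets was 0.177. Its partner S100a8 gave 4.51 and 5.25 against 6.02 and 6.14 (1.20, adjusted p = 0.0704), and the neutrophil receptor gene Csf3r, no marker of the list, gave 3.96 and 4.33 against 5.62 and 5.45 (1.39, adjusted p = 0.14 over all probe sets). The integrin gene Itgam stayed at or below the offset on all 4 arrays, and the macrophage gene Csf1r differed by -0.19. Adipose markers had the highest median of the cell type lists, 0.38 over 10 genes. They summed to 5477 and 4883 against 5648 and 5950, higher in contralateral kidneys without overlap of the groups. Most of the level of these sums, but not their rise, came from lipoprotein lipase, Lpl, which kidney itself expresses and which differed by -0.04. The lipid droplet gene Plin4 passed (1.03, adjusted p = 0.0431), Adipoq gave 7.14 and 6.43 against 7.20 and 7.31, and Lep was at or below the offset on all arrays. Plin4 entered the brighter fit only through its contralateral signal (adjusted p = 0.194 over all probe sets). The part of fat attached to the kidney in Plin4, Pdk4 and Angptl4 was not tested. Skeletal muscle markers summed to 75.8 and 75 against 68.7 and 66.6, with 7 of 10 at or below the offset on all arrays. Red blood cell markers summed to 337 and 347 against 366 and 314, fibroblast and smooth muscle markers to 3856 and 3730 against 3580 and 4231, and adrenal markers to 201 and 266 against 230 and 212, where Cyp11a1, Hsd3b1 and Chga were at or below the offset. The sums overlapped between the groups for red blood cell, fibroblast and adrenal markers and were lower in contralateral kidneys, without overlap, for muscle. In these 4 lists 0 members passed over all probe sets. Among brighter probe sets 0 passed of the 11 fibroblast and smooth muscle, 3 red blood cell and 3 adrenal markers that could be tested, and 0 muscle markers could be tested.

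**Figure D4:**
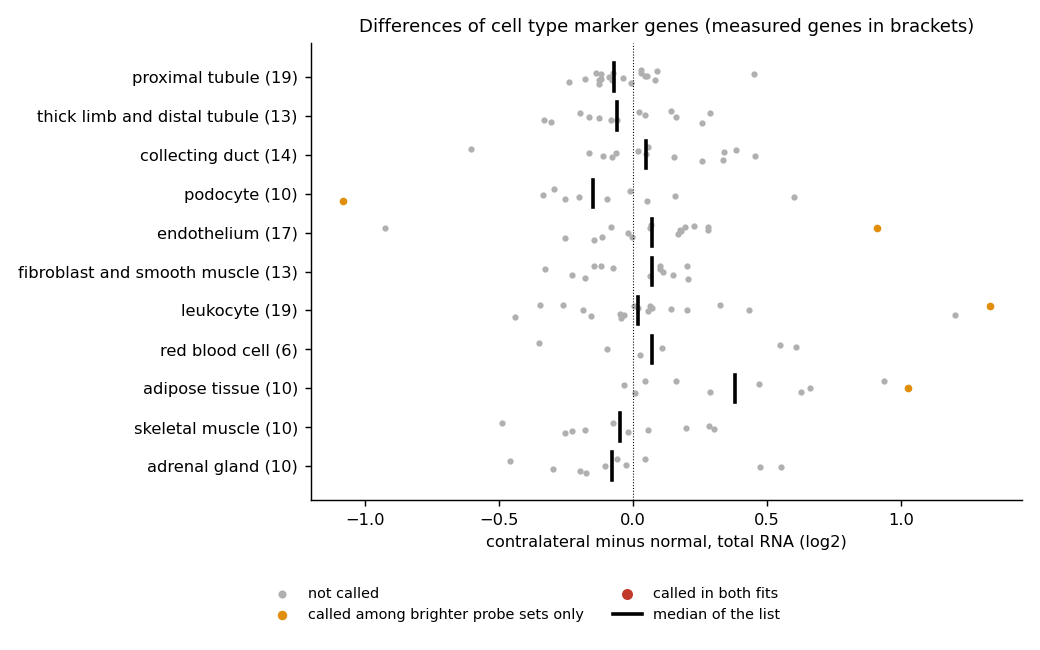
Contralateral minus normal difference in total RNA (horizontal axis, log2) of marker genes of 11 cell types and tissues (rows, number of measured genes in brackets), with orange for genes called among brighter probe sets, grey for genes not called and a bar at each median. The medians lie between -0.15 (podocyte) and 0.38 (adipose tissue), and the orange points are Tcf21, Thbd, S100a9 and Plin4.

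The 4 arrays of amplified total RNA, 2 for each kidney group, were set beside these values. They share no array with total RNA, and the labels do not say whether the RNA came from the same kidneys. Their Gapdh 3'/5' ratios were 4.21 to 6.23. Fitted alone, they gave 102 higher (0.451%) and 246 lower (1.09%) probe sets. Of the 16 probe sets that rose in total RNA, 8 were also called higher and 3 called lower. Cdkn1a stood at 2.01 in total and 2.27 in amplified RNA, Igfbp1 at 1.86 and 2.22, Cebpd at 2.05 and 2.02, Angptl4 at 1.45 and 1.66, Fkbp5 at 1.21 and 1.09 and Ddit4 at 1.52 and 1.25, each called higher in both. Hmox1 stood at 3.06 and 1.44 (adjusted p = 0.137 in amplified RNA), and Dusp1 at 1.19 and 0.76 (adjusted p = 0.0565). The 3 called lower were the probe sets of Malat1 (-2.41) and Sptbn1 (-2.15) that rose in total RNA and an unnamed one (-1.24).

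The difference between the preparations was itself tested on the 8 arrays normalized together. The contralateral difference was larger in total than in amplified RNA for 358 probe sets (1.58%) and smaller for 55 (0.243%). Of the 99 genes higher in total RNA among brighter probe sets 20 differed between preparations, 19 with the larger value in total RNA. The exception was Mt1, which stood at 0.97 in total and 2.18 in amplified RNA in this fit (adjusted p = 0.00478). Of the 24 glucocorticoid-induced genes Mt1 and Cebpb differed, the latter with 1.33 against 0.18 (adjusted p = 0.0235). Of the 31 lower genes 2 differed between preparations. The 99 and the 31 genes were picked by total RNA values that also enter this test. Larger differences in total RNA were thus favoured in advance among them. Kcnj15, Ppara and Ppargc1a were higher in total RNA and stood at -1.96, -1.0 and -1.52 in amplified RNA, and Ddx6, an RNA helicase gene of mRNA decay, at 0.96 and -2.37 (adjusted p = 0.000285). For these genes the direction therefore differed between preparations that also differed in 3'/5' ratio, and the part of that ratio was not tested. For Cyp27b1 the values fitted per preparation were -1.67 and -1.14, for Gjb2 -1.02 and -1.43, and for Dbp -1.10 and -1.20.

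**Figure D5:**
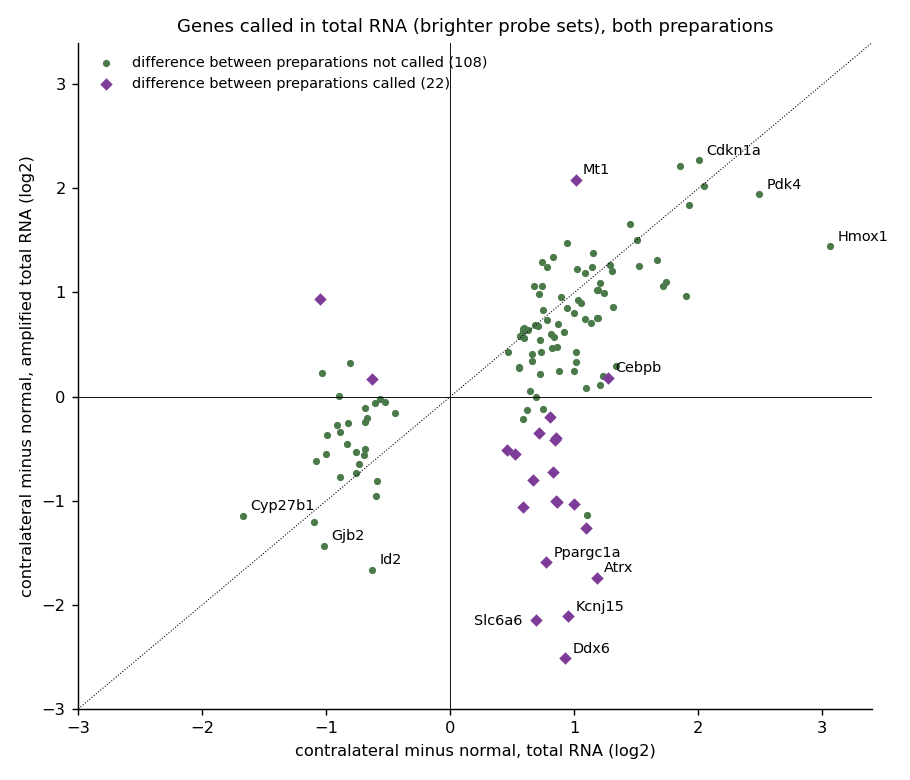
Contralateral minus normal difference in amplified total RNA (vertical axis, log2) against that in total RNA (horizontal axis, log2) for the 130 genes called in total RNA among brighter probe sets, each preparation fitted alone. Purple diamonds mark the 22 genes whose difference between preparations was called, green circles the other 108, and the dotted line marks equal values; Mt1 lies above it and Ddx6, Slc6a6, Kcnj15, Atrx and Ppargc1a lie below 0 on the vertical axis.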

How the data were processed

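Kidney RNA was reverse-transcribed, linearly amplified and biotin-labelled with T7 for Affymetrix arrays, per the labels' protocols, which describe amplification for every array; the titles separate total from amplified total RNA. The authors deposited 1 linear signal intensity per probe set and array. Neither the summary algorithm nor the scaling is stated in the labels, and no detection calls were used.

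Of 22690 probe sets 64 controls were set aside. Platform annotation gave 1 symbol for 20380, several for 691 and none for 1555. The 4 total RNA arrays were transformed as log2(intensity + 14.1), the offset being their 25th percentile, and quantile normalized on their own. Groups were compared with limma 3.58.1 in R 4.3.3 (lmFit, eBayes with an intensity trend, Benjamini-Hochberg at 0.05), without a block, since same-numbered arrays did not deviate together (r = -0.0439). Scripts were tested on simulated data. The number of arrays limits the precision, and p-values measure the spread between these arrays.

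Where several probe sets with 1 symbol measure a gene, the brightest over the 4 arrays stands for it. Named genes were the 15 largest rises and falls that passed without overlap of the groups, filled by smallest p, then up to 5 passing members of each list or 2 by smallest p, and the brightest marker of each cell type. Members and lists were chosen with earlier results of these data known. The 40th percentile filter, other normalizations, offsets, filters and fits, and leaving out arrays were tried as alternatives. Promoter windows came from RefSeq (GRCm38.p6).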

Additional observations from a re-analysis of the deposited data

Results flagged for a closer look

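This section covers 15 probe sets called in total RNA in at least 1 of the fits, mostly of genes picked for naming. They are not all that differed, since Tbcel (adjusted p = 0.00309) and Slc25a30 (adjusted p = 0.00768) did too. Total RNA values, by which they were called, also enter this test. The contralateral difference of these 15 was not the same in total and in amplified total RNA, by the test of the difference on 8 arrays (limma, Benjamini-Hochberg adjustment). For Mt1 it was smaller in total RNA, by -1.22 (adjusted p = 0.00478), with higher values in contralateral kidneys in both preparations. Cebpb was larger in total RNA by 1.15 (adjusted p = 0.0235), at 1.33 against 0.18, and Cebpa was lower by -0.83 (adjusted p = 0.046), at -0.67 against 0.16.

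The other 12 were higher in contralateral kidneys in total RNA and had a negative value in amplified RNA. Among regulators of metabolism, the difference between preparations was 2.04 for Ppara (adjusted p = 0.00358) and 2.32 for Ppargc1a (adjusted p = 0.000246). For the potassium channel gene Kcnj15 it was 2.94 (adjusted p = 0.000246), and for the taurine transporter gene Slc6a6 2.75 (0.71 against -2.04, adjusted p = 0.00168). The helicase gene Ddx6 differed by 3.33 (adjusted p = 0.000285). The chromatin genes Atrx, Kdm5a and Kdm6a differed by 2.90 (1.22 against -1.68), 1.85 (0.92 against -0.93) and 1.29 (0.91 against -0.38), with adjusted p = 0.00759, 0.0113 and 0.0242. Atrx entered the brighter fit only through its contralateral signal (adjusted p = 0.174 over all probe sets). Its other probe sets stood at -0.21, 0.60, 0.63 and 0.57 in total RNA and did not pass.

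The Malat1 and Sptbn1 probe sets that rose in total RNA differed by 4.31 (2.05 against -2.26, adjusted p = 0.000248) and 3.38 (1.28 against -2.10, adjusted p = 4.73e-05). Unnamed probe sets differed by 2.93 (1.60 against -1.32, adjusted p = 0.000656) and 1.35 (0.98 against -0.37, adjusted p = 0.0232).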

How the results depend on the processing

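The 16 probe sets called in total RNA kept their direction in every alternative fit of single probe sets. These fits reuse the same total RNA arrays, and no groups overlapped in the 16. The kept direction, here and for the named genes below, is therefore no independent evidence. The count of calls was 87 with 8 or with 10 arrays in the fit (all 16 among them), 27 with median centring (15 among them), 3974 without normalization, 39 and 4 with the offset at the 10th or 50th percentile, 228 and 221 above the 40th or 60th percentile, and 0 without an intensity trend (2407 at an unadjusted p under 0.05). Leaving out 1 array gave 0 calls each by limma, with 1690 to 2396 probe sets at an unadjusted p under 0.05, where the lone array is assumed to vary like the other group. Cyclic loess, robust hyperparameters and the mean of a gene's probe sets stayed within 1.5 times the count. With the replicate number as a replicate block the count was 65, and above the 40th percentile 605; the numbers are not known to pair kidneys.

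Alternatives above the 40th percentile added after the data were seen gave 158, 61, 37 and 131 calls without normal array 1, normal array 2, contralateral array 1 or contralateral array 2, 209 with median centring, 9 without an intensity trend and 245 with 8 arrays. The difference between preparations was called for 413 probe sets, 231 with the replicate block and 85 to 387 without 1 array. Amplified RNA alone had 348 calls, 1001 with median centring and 0 to 23 without 1 array. Over the named genes and alternatives 1530 results stayed on their side of the threshold, 58 lost the call, 641 gained it and 0 reversed.

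Counts thus depended on the treatment of dim probe sets and on single arrays. Detection calls were not used here, so low signals carry no statement about presence. With 2 arrays a group, values that did not pass do not show that a gene was unchanged.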
